A study of Mus musculus with 11 samples.

Results

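The 37 genes described here mark the subsets of splenic B cells: marginal zone cells, B-1 cells, follicular cells and the transitional cells from which they mature, together with Toll-like receptors and CD180, which marginal zone and B-1 cells use to sense microbial products. The genes were matched to the arrays by symbol. All 37 had at least 1 probe set whose platform annotation (an Affymetrix mouse genome array) names a single gene, 80 probe sets in all, among 18193 genes tested. Marginal zone cells sit at the border of the white pulp, respond fast to blood-borne antigen and depend on signalling through the receptor Notch2. Follicular cells recirculate and express CD23, and transitional cells are recent arrivals from the bone marrow that still carry some precursor genes. B-1 cells arise largely early in life and produce natural antibody.

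Splenic B cells came from female mice aged 6 weeks of the strains NOD/ShiLtJ (NOD), which develops autoimmune diabetes, and NOD.NOR-Chr4/DvsJ (NR4), which is NOD with a segment of chromosome 4 from the strain NOR. None of the 37 genes lies on chromosome 4. Each lot pooled 7 to 8 spleens, B cells were enriched by magnetic depletion of other cells, and the cells spent 2 h in culture, either unstimulated (medium) or with 10 µg/ml of F(ab')2 goat antibody against mouse IgM, which cross-links the B cell receptor. There are 3 arrays of NOD cells in medium, 2 of NOD cells with anti-IgM, 3 of NR4 cells in medium and 3 of NR4 cells with anti-IgM. Per the study's design text, cells of each lot were cultured both ways, though the labels do not tie an array to a lot. In pooled cells of mixed subsets a change in RNA per cell and a change in the number of cells of a subset cannot be told apart.

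Values are log2 signals, each probe set centred on its median over the 11 arrays, so 0 is the middle array and not a low signal. The gene value is the median of its probe sets. Levels are lost by the centring, and neither B cell identity nor the presence of a precursor gene above background can be checked on it. A gene is called when its adjusted p is below 0.05 (limma, Benjamini-Hochberg over all 18193 genes). Centred signal at the 3' end minus the 5' end, averaged over 5 control transcripts, was 0.36 log2 on NR4 anti-IgM replicate 1 and -0.11 to 0.21 elsewhere. The control probe sets are centred too. These values therefore compare RNA quality between arrays only, and the ratio of 3' to 5' signal itself is not known.

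The response to anti-IgM was the first comparison. Averaged over both strains, the membrane protein genes Plscr1 and Fzd6, marked here as B-1 genes, and the transcription factor gene Myb, a precursor gene, rose. The complement regulator gene Cd55 and the marginal zone gene Cd1d1 fell. These 5 of 37 (13.5%) stand against 1.56% of all genes tested, with 3 higher against 0.715% and 2 lower against 0.841%. The 37 were chosen with earlier results of these data known, and dim genes could not be filtered from all genes. The shares are therefore descriptive. At an unadjusted p under 0.05 there were 11 of 37, against 11.4% of all genes. The count fell to 0 without NOD anti-IgM replicate 1 or replicate 2 and to 1 without NOD medium replicate 2. It was 3 without NOD medium replicate 1 or 3 or NR4 medium replicate 1 or 3, and 4 without any other array. Without NR4 medium replicate 2 the 4 took in Fcer2a, which is outside the 5, while Cd55 and Cd1d1 did not pass. With all arrays the other 32 genes did not pass, among them every gene of the Notch2 pathway and every innate receptor. The median response of the 37 was 0.016 log2, against 0.0034 for all genes, with 23 positive and 14 negative values.

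**Figure D1:**
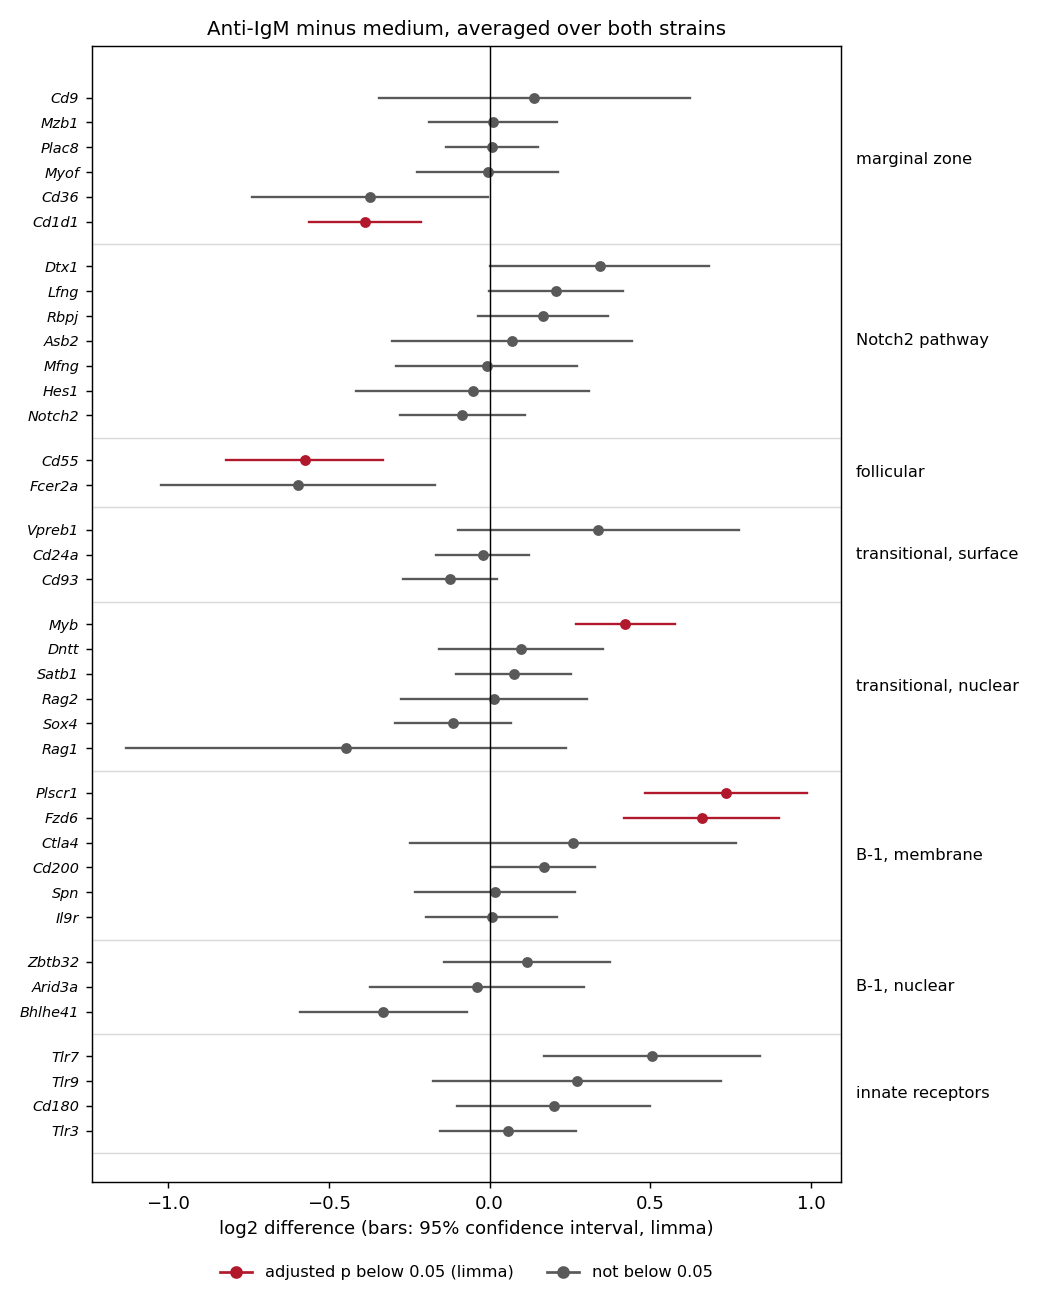
Change in each of the 37 genes with anti-IgM, as the mean of NOD and NR4, as a log2 difference with its 95% confidence interval (limma), grouped by the subset the gene marks. The 5 called genes are red, 3 to the right of 0 and 2 to the left, and most other intervals cross 0.

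Plscr1 encodes a phospholipid scramblase of the plasma membrane that is also inducible by interferon. In medium it read 0, -0.50 and -0.51 on the NOD arrays and -0.22, -0.46 and -0.41 on the NR4 arrays. With anti-IgM it read 0.60 and 0.45 in NOD and 0.41, 0.25 and 0.087 in NR4. All 5 stimulated arrays lay above all 6 unstimulated arrays, and the gene rose by 0.74 log2, a 1.67-fold change (SE 0.11, limma adjusted p = 0.013). The rise was 0.86 (SE 0.17) in NOD and 0.61 (SE 0.15) in NR4. Neither passed within a strain (limma adjusted p = 0.13 and 0.16), while with the replicate number as a block NR4 passed (limma adjusted p = 0.028). NOD passed with the block as well, though pairing by number was not established for stimulated NOD cells. The average did not pass without NOD anti-IgM replicate 1 (limma adjusted p = 0.062) or replicate 2 (0.056). Its 3 probe sets differed by 0.69, 0.70 and 0.98, and the first and second passed over all probe sets.

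Fzd6, a Frizzled receptor for Wnt ligands, read -0.045, -0.23 and 0 in NOD medium and -0.15, -0.16 and -0.68 in NR4 medium. With anti-IgM the values were 0.81 and 0.63 in NOD and 0.23, 0.11 and 0.20 in NR4. The stimulated arrays were again all above the unstimulated ones, with 1 low unstimulated array, NR4 replicate 3, at -0.68. The rise was 0.66 log2 (SE 0.11, limma adjusted p = 0.017), or 1.58-fold. In NOD the difference was 0.81 and in NR4 0.51. The test of that gap gave 0.30 log2 (95% interval -0.18 to 0.78), which includes 0. The averaged rise did not pass without NOD anti-IgM replicate 1 (limma adjusted p = 0.075), NOD anti-IgM replicate 2 (0.064) or NOD medium replicate 2 (0.057). The 3 probe sets differed by 0.70, 0.51 and 0.56, and the first of them alone passed over all probe sets.

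Myb, a transcription factor of haematopoietic precursors, read -0.0087, -0.045 and -0.22 in NOD medium and -0.13, -0.028 and -0.059 in NR4 medium. With anti-IgM it read 0.40 and 0.36 in NOD and 0.21, 0.29 and 0.40 in NR4. The stimulated and unstimulated arrays did not overlap, and the spread within each group was small beside the gap between them. Myb rose by 0.42 log2 (SE 0.070, limma adjusted p = 0.017), by 0.47 in NOD and 0.37 in NR4. The rise did not pass without NOD anti-IgM replicate 1 (limma adjusted p = 0.073), NOD anti-IgM replicate 2 (0.08) or NOD medium replicate 2 (0.055). Its 3 probe sets differed by 0.27, 0.50 and 0.44. The smallest value is that of a probe set marked as prone to cross-hybridisation, which did not pass when it stood for the gene (limma adjusted p = 0.11).

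Cd55 encodes decay-accelerating factor, which protects cells from complement. It read 0.17, 0.30 and 0.26 in NOD medium and 0.33, 0 and 0.092 in NR4 medium. With anti-IgM it read -0.024 and -0.29 in NOD and -0.40, -0.91 and -0.52 in NR4. Within each strain every stimulated array lay below every unstimulated one, and the NR4 arrays with anti-IgM were the lowest of all. Cd55 fell by 0.58 log2 (SE 0.11, limma adjusted p = 0.031), to 0.671 of the level in medium. The difference was -0.75 in NR4 and -0.40 in NOD, and the gap between the strains, 0.35 (95% interval -0.14 to 0.84), did not pass. The call held without NR4 anti-IgM replicate 1 or replicate 2 and was lost without any 1 of the other 9 arrays, with limma adjusted p values up to 0.16, while the difference stayed between -0.64 and -0.50. All 3 probe sets had negative differences, -0.64, -0.54 and -0.59, and all but the second passed over all probe sets. A further probe set shared with the neighbouring Cd55b was not used.

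Cd1d1 encodes the lipid-presenting molecule CD1d, most abundant on marginal zone B cells. It read 0.22, -0.039 and 0.18 in NOD medium and 0.22, 0.11 and 0.15 in NR4 medium. With anti-IgM it read -0.23 and -0.12 in NOD and -0.35, -0.43 and -0.18 in NR4. All 5 stimulated arrays were below the unstimulated ones, though NOD medium replicate 2 lay close to them. Cd1d1 fell by 0.39 log2 (SE 0.079, limma adjusted p = 0.04), with a difference of -0.48 in NR4 and -0.29 in NOD. The probe sets differed in size, with differences of -0.23 and -0.54. The larger difference belongs to one whose name marks a match to several transcripts, and the near-identical copy Cd1d2 may share it. Without it the difference was -0.23 and did not pass (limma adjusted p = 0.37). The call held without NR4 anti-IgM replicate 3 and was lost without any 1 of the other 10 arrays, with limma adjusted p values up to 0.15.

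**Figure D2:**
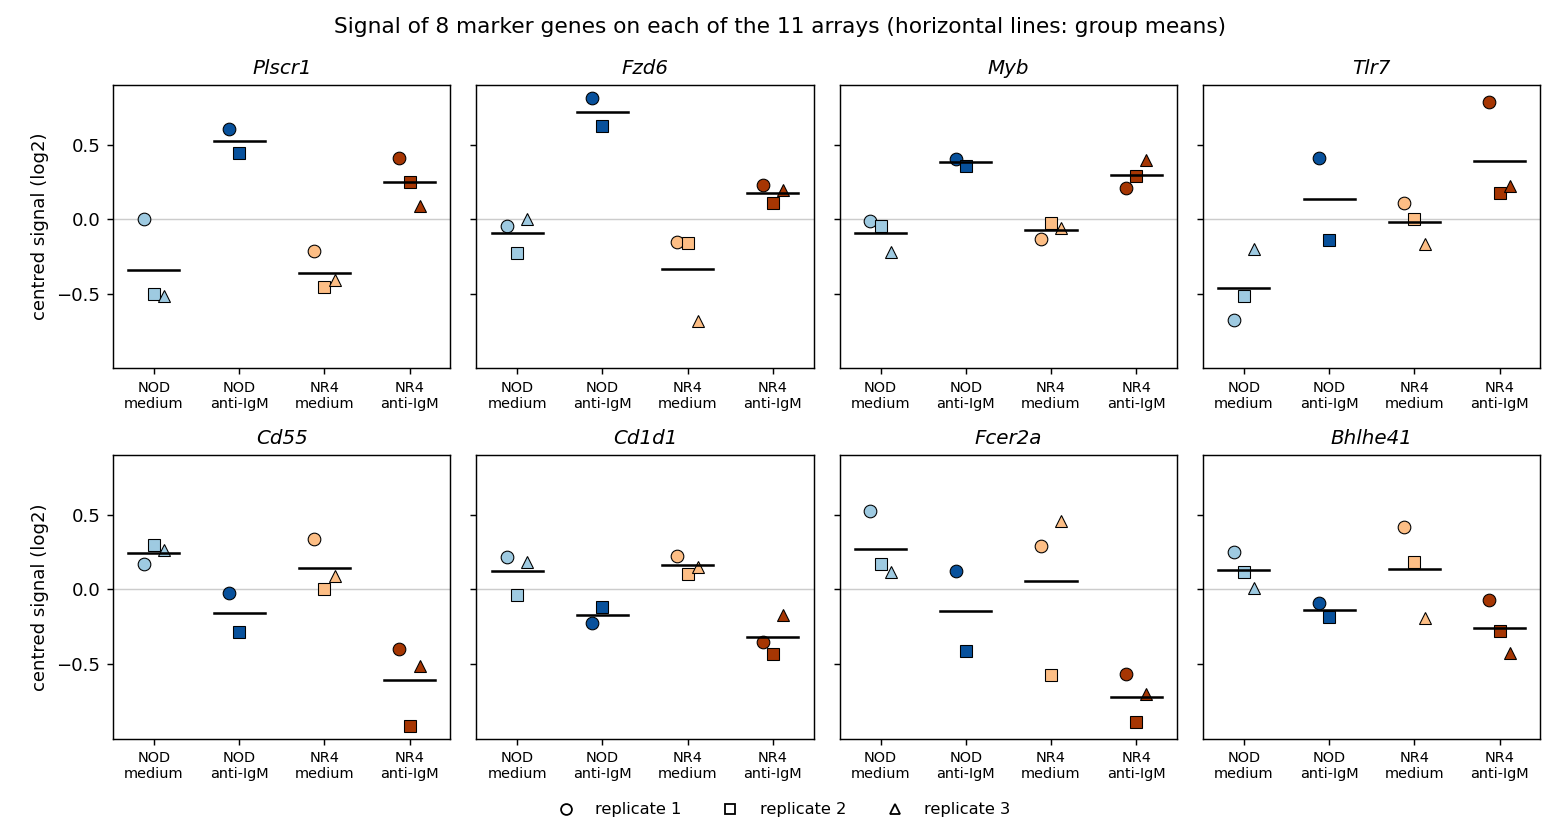
Centred log2 signal of 8 marker genes on each of the 11 arrays, by strain and culture, with symbols for the replicate number and lines for group means. In the panels of Plscr1, Fzd6 and Myb every anti-IgM array lies above every medium array, and in those of Cd55 and Cd1d1 every anti-IgM array lies below those of its own strain in medium.

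Among probe sets taken singly, 7 of the 80 passed in the averaged response, against 1.01% of the 45037 probe sets tested. They were 2 of Plscr1, 1 of Fzd6, 1 of Myb, 2 of Cd55 and 1 of Cd1d1. Within each of these 5 genes all probe sets had differences of the same sign.

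**Figure D3:**
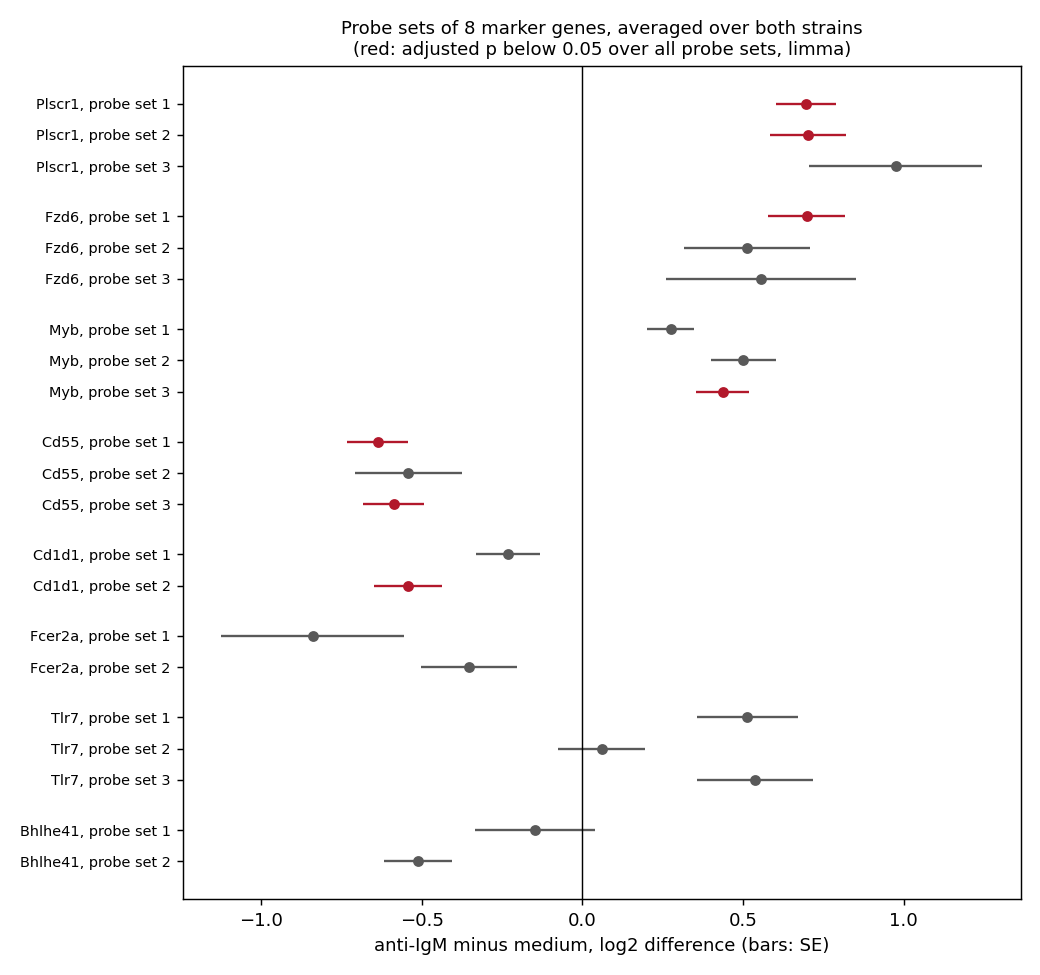
Change with anti-IgM in each probe set of 8 marker genes, as the mean of the strains, as a log2 difference with its SE (limma). Red marks the 7 probe sets with an adjusted p below 0.05 over all probe sets, and all of them belong to the 5 called genes.

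For 28 of the 37 genes the RefSeq promoter table (assembly GRCm38.p6) holds a window, and 3 of the called genes are among them. Their 250 bases before the annotated start are printed below because these genes passed and the sign was the same on every probe set. Capitals mark matches, on either strand, to GGAAA (NFAT core) or TGACG (core of the cAMP response element). The windows are chr9:92249944-92250193, plus strand, for Plscr1, chr10:21160985-21161234, minus strand, for Myb, and chr1:130462745-130462994, minus strand, for Cd55.
Plscr1: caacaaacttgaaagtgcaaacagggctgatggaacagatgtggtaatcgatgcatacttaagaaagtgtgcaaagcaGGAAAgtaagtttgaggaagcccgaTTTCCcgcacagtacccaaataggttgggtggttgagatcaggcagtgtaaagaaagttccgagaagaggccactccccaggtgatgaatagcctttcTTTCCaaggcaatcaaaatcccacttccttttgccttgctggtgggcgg
Myb: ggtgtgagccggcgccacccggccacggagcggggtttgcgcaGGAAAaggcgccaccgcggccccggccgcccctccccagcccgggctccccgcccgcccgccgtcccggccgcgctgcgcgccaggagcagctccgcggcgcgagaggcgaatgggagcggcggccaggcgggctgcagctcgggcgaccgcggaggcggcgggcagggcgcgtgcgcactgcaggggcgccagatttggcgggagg
Cd55: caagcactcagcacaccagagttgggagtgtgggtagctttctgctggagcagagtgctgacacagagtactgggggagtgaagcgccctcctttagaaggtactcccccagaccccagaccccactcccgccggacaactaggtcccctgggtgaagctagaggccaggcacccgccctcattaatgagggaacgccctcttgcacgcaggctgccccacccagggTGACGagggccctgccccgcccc
Plscr1 holds 3 matches to GGAAA, beginning 172, 147 and 49 bases before the start, and Myb 1, beginning 207 bases before it, and Cd55 holds 1 match to TGACG that begins 23 bases before the start. Of the 32851 windows in the table, 55.6% hold GGAAA and 17.8% hold TGACG. No match was found in the 3 windows to TGANTCA (AP-1, in 6.75% of windows), GCGTGGGCG (EGR, 0.536%), CACGTG (E-box, 6.02%), TGGGAA (RBPJ, 21.6%), the NF-kB motif (1.21%) or the interferon response element ISRE (2.98%). TGGGAA and GGAAA can overlap. A match is a description of letters, and its absence says only that the letters are not in the window.

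The other marginal zone genes did not pass. Cd36, a scavenger receptor, read 0.21, 0.012 and -0.068 in NOD medium and 0.34, 0.060 and 0.23 in NR4 medium, and with anti-IgM -0.11 and -0.11 and -0.98, -0.16 and 0.033. Stimulated arrays lay below those in medium in each strain, by a small margin except on NR4 replicate 1 at -0.98. The averaged difference was -0.37 (SE 0.17, limma adjusted p = 0.43), and -0.22 without that array, which also had the largest 3' to 5' difference. Cd9, a tetraspanin, varied by replicate within every group, from 0.34, 0.21 and -0.13 in NOD medium and 0.61 and 0 with anti-IgM to 0, -0.062 and -0.75 in NR4 medium and 0.41, -0.26 and -0.63 with anti-IgM. In each NR4 group replicate 3 was the lowest, and the averaged response was 0.14 (SE 0.22). Mzb1, a chaperone of immunoglobulin assembly, was at 0.011 (SE 0.089). The membrane repair gene Myof was at -0.0055 and Plac8 at 0.0089, with an interval of -0.13 to 0.15 for Plac8.

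In the Notch2 pathway 0 of 7 genes passed (limma, 1 at an unadjusted p under 0.05) and 4 of 7 were positive, with a median of 0.069. Dtx1, a ubiquitin ligase gene switched on by Notch signalling, read -0.16, -0.15 and -0.31 in NOD medium and 0.29 and 0.11 with anti-IgM, and -0.20, -0.33 and 0.035 in NR4 medium and 0.52, -0.41 and 0.24 with anti-IgM. The NOD cultures separated. The NR4 cultures overlapped, replicate 2 with anti-IgM being the lowest array of all. The averaged difference was 0.34 (SE 0.15, limma adjusted p = 0.43).

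Lfng encodes the fringe glycosyltransferase that modifies Notch receptors in favour of Delta ligands. It read 0.068, -0.030 and 0.14 in NOD medium and -0.075, -0.23 and -0.25 in NR4 medium, and with anti-IgM 0.020 and 0.23 and -0.0057, 0.42 and 0.069. NR4 arrays separated by culture and NOD arrays overlapped. The averaged difference was 0.21 (SE 0.094, limma adjusted p = 0.45). Rbpj, the DNA-binding partner of Notch, read 0.014, -0.017 and 0.016 in NOD medium and 0.26 and 0.035 with anti-IgM, and -0.026, -0.082 and -0.47 in NR4 medium and 0, 0.038 and -0.034 with anti-IgM. Replicate 3 of NR4 in medium stood low and the averaged difference was 0.17 (SE 0.091). The receptor gene Notch2 was at -0.084 (95% interval -0.28 to 0.11), the repressor gene Hes1 at -0.053, the second fringe gene Mfng at -0.0090 and Asb2, another Notch target, at 0.069.

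Of 38 further Notch pathway genes 35 were measured, and 0 passed in the averaged response (limma, 2 at an unadjusted p under 0.05, both positive). The smallest p values were those of the Deltex genes Dtx3, at 0.50 (SE 0.19, limma adjusted p = 0.30), and Dtx4, at 0.26 (SE 0.11, limma adjusted p = 0.43). Their median was 0.0079.

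Fcer2a, which encodes the IgE receptor CD23 of follicular cells, had a difference close to that of Cd55 but a wider error. It read 0.53, 0.17 and 0.11 in NOD medium and 0.29, -0.58 and 0.46 in NR4 medium, and with anti-IgM 0.12 and -0.41 and -0.57, -0.89 and -0.70. Unstimulated NR4 replicate 2 lay with the stimulated arrays, and the other unstimulated NR4 arrays lay well above them. The averaged difference was -0.60 (SE 0.19, limma adjusted p = 0.21). Without NR4 unstimulated replicate 2 it was -0.75 and passed (limma adjusted p = 0.039). Its probe sets differed by -0.84 and -0.35.

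Several pan B cell genes fell beside Cd55 and Cd1d1. Of 11 measured, 5 fell and 0 rose, namely Cd22, Cd79b, Cd37, Ms4a1 and Fcrla, with differences of -0.99 to -0.47. The mean centred value of the 11 was 0.090 to 0.14 on NOD arrays in medium and -0.31 to -0.067 with anti-IgM. In NR4 it was -0.076 to 0.35 in medium and -0.37 to -0.18 with anti-IgM. Whether the falls of the subset genes share a source with these was not tested.

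Among surface genes of transitional cells and precursors 0 of 3 passed (limma, 0 at an unadjusted p under 0.05). Vpreb1, part of the surrogate light chain, read 0.19, -0.091 and 0 in NOD medium and 0.0080 and 0.015 with anti-IgM. In NR4 it read -0.37, 0 and -0.047 in medium and -0.12, 0.63 and 1.17 with anti-IgM. Only NR4 anti-IgM replicates 2 and 3 stood high, and replicate 1 lay among the unstimulated arrays. The response was 0.70 in NR4 and -0.021 in NOD, and the difference between them, -0.72 (95% interval -1.59 to 0.15, limma adjusted p = 1.00), did not pass. The averaged response, 0.34, was 0.51 without NR4 anti-IgM replicate 1 and 0.19 without replicate 3. The value rests on 1 probe set, and a second one shared with Vpreb2 was not used.

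Cd93, the AA4 antigen that defines transitional cells, read 0.11, 0 and 0.047 in NOD medium, 0.0079 and -0.095 in NOD with anti-IgM, 0.0030, 0 and 0 in NR4 medium and -0.042, -0.15 and -0.26 in NR4 with anti-IgM. The stimulated NR4 arrays were slightly below those in medium, and the averaged response was -0.12 (SE 0.066, limma adjusted p = 0.57). Its 5 probe sets had differences of -0.26, -0.027, 0.051, -0.18 and -0.58, negative on all but the third (SE 0.077). The last (SE 0.17) had a limma unadjusted p of 0.0070. It did not pass over all probe sets (limma adjusted p = 0.19), and the gene median does not reflect it. Cd24a, the heat-stable antigen, was at -0.021 (95% interval -0.17 to 0.12).

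Of the nuclear genes of precursors, Myb was the only one of 6 that passed. Rag1, a subunit of the recombinase, scattered most of the 6. It read 0, -0.76 and 0.21 in NOD medium, -0.16 and -0.88 in NOD with anti-IgM, 0.65, 0.088 and 0.35 in NR4 medium and 0.82, -0.68 and -0.72 in NR4 with anti-IgM. The groups overlapped, the stimulated NR4 arrays spanning nearly the whole range, and the response was -0.45 (SE 0.31, limma adjusted p = 0.73). It was -0.70 without NR4 anti-IgM replicate 1 and -0.27 without NOD anti-IgM replicate 2. Its partner Rag2 was at 0.014, Dntt, the terminal transferase, at 0.098 and the transcription factor gene Sox4 at -0.11. The 8 probe sets of Sox4 lay between -0.51 and 0.19, with an SE of up to 0.85. Satb1, a chromatin organiser, was at 0.075 (SE 0.080), but its 5 probe sets differed from each other by sign, at 0.26, 0.072, -0.54, 0.51 and 0.22.

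Of 23 further early B cell and recombination genes 20 were measured, and 1 passed. Vpreb3, a partner of the pre-B receptor chains, fell by 1.28 log2 (SE 0.23, limma adjusted p = 0.023). The median of the 20 was -0.079.

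Besides Plscr1 and Fzd6, 4 membrane genes of B-1 cells were measured, and all 6 had positive values. Cd200, whose product engages an inhibitory receptor on myeloid cells, read -0.18, -0.20 and -0.15 in NOD medium, 0.066 and 0 in NOD with anti-IgM, 0.069, -0.042 and 0 in NR4 medium and 0.31, -0.0030 and 0.11 in NR4 with anti-IgM. NOD arrays separated by culture and NR4 arrays overlapped. The averaged difference was 0.17 (SE 0.072, limma adjusted p = 0.39). Ctla4, the inhibitory receptor gene, was at 0.26 (SE 0.23), Spn, which encodes CD43, at 0.017 and the interleukin 9 receptor gene Il9r at 0.0063.

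Of the B-1 transcription factor genes 0 of 3 passed (limma, 1 at an unadjusted p under 0.05). Bhlhe41, needed for B-1a cells, read 0.25, 0.12 and 0.012 in NOD medium, -0.092 and -0.18 in NOD with anti-IgM, 0.42, 0.18 and -0.19 in NR4 medium and -0.074, -0.28 and -0.43 in NR4 with anti-IgM. Values ran lower with anti-IgM in each replicate number of each strain, while NR4 medium replicate 3 lay among the stimulated arrays. The difference was -0.33 (SE 0.12, limma adjusted p = 0.26), and its probe sets differed by -0.15 and -0.51. It passed with the replicate number as a block (limma adjusted p = 0.027), a pairing not established for stimulated NOD cells. Zbtb32, a repressor gene, read 0.18, -0.15 and -0.087 in NOD medium, -0.082 and 0.017 in NOD with anti-IgM, 0.21, 0 and -0.11 in NR4 medium and 0.61, 0.15 and 0.087 in NR4 with anti-IgM. Its groups overlapped and the difference was 0.12 (SE 0.12), or 0.035 without NR4 anti-IgM replicate 1. Arid3a, which can drive B-1 features, read 0.018, -0.030 and 0.027 in NOD medium, -0.075 and -0.094 in NOD with anti-IgM, 0.23, -0.16 and 0.044 in NR4 medium and 0.55, 0 and -0.40 in NR4 with anti-IgM. It was at -0.039 (SE 0.15).

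All 4 innate receptor genes had positive averaged responses and 0 passed (limma, 1 at an unadjusted p under 0.05). Tlr7, the receptor for single-stranded RNA, read -0.67, -0.51 and -0.20 in NOD medium and 0.41 and -0.14 with anti-IgM, and 0.11, 0 and -0.17 in NR4 medium and 0.78, 0.17 and 0.22 with anti-IgM. Cultures separated within each strain, with NR4 anti-IgM replicate 1 the highest array. The difference was 0.50 (SE 0.15, limma adjusted p = 0.17), and its probe sets differed by 0.51, 0.060 and 0.54. Cd180, a Toll-like surface receptor, read 0.037, -0.12 and -0.31 in NOD medium, -0.0046 and -0.12 in NOD with anti-IgM, 0, -0.13 and 0.33 in NR4 medium and 0.78, 0.13 and 0.27 in NR4 with anti-IgM. The same NR4 array was highest, and the response was 0.20 (SE 0.14) with it and 0.10 without it. Tlr9, the receptor for CpG DNA, was at 0.27 (SE 0.20) and Tlr3, for double-stranded RNA, at 0.058 (SE 0.095).

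Of 27 further Toll-like receptor pathway genes 24 were measured and 2 passed. The kinase gene Irak2 rose by 0.63 (SE 0.11, limma adjusted p = 0.024), and Irak3, which encodes an inhibitory member of the same family, fell by 0.87 (SE 0.14, limma adjusted p = 0.017). The median of the 24 was 0.049.

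Without regard to the model, 7 of the 37 genes separated by culture in their gene medians the same way in both strains, against 5.64% of all genes. Upward these were Plscr1, Fzd6, Myb and Tlr7, 4 of 37 against 2.08%, and downward Cd55, Cd1d1 and Cd36, 3 of 37 against 3.56%. Of the markers of other cells, 1 gene of the dendritic cell list passed, Itgax, at 0.50 (SE 0.082, limma adjusted p = 0.017), and 0 genes of the T cell, NK cell, monocyte, neutrophil, platelet, erythroid and plasma cell lists. The mean of the 8 dendritic cell genes was -0.11 to -0.0035 in NOD medium and 0.024 to 0.026 with anti-IgM, and -0.13 to 0.11 and 0.081 to 0.22 in NR4. Its part in the rises of Plscr1 and Fzd6 was not tested.

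Within single strains 0 of the 37 genes passed in NR4, where 0.412% of all genes did (limma, 10 of 37 at an unadjusted p under 0.05, against 9.63%). In NOD 0 passed, where 0.115% of all genes did (limma, 6 of 37 at an unadjusted p under 0.05, against 5.15%). NR4 arrays that share a replicate number departed from their group means together. With that number as a block Cd55 and Plscr1 passed in NR4 (limma adjusted p = 0.029 and 0.028), 2 of 37 against 1.26% of all genes. The stimulated NOD arrays are numbered 1 and 2 only, so the NOD and averaged responses can take in part of any difference by replicate number. With the arrays numbered 1 and 2 alone, an alternative chosen after seeing the data, 0 of the 37 passed in the averaged response, and Plscr1 was at 0.72 (limma adjusted p = 0.10). The responses in the strains share no arrays. Over the 37 genes they had a Pearson correlation of 0.68, against 0.53 over all genes, and 22 of 37 had the same sign (59.5%, against 60.0% of all genes). These are descriptions across genes, which are not independent. The labels call the arrays of a group biological replicates and do not tie them to pools of spleens.

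**Figure D4:**
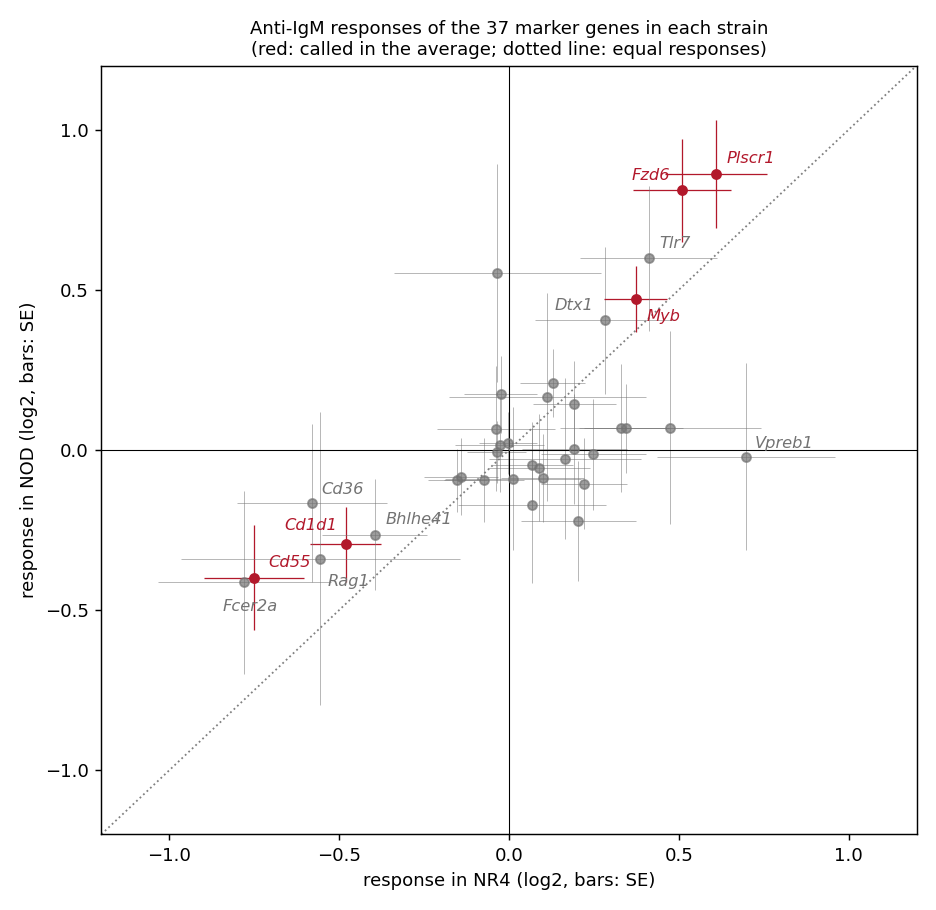
Response of the 37 genes to anti-IgM in NR4 (horizontal axis) and in NOD (vertical axis), as log2 differences with SE, the dotted line marking equal responses. The 5 called genes, in red, lie in the upper right and lower left, and most others cluster around 0.

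Whether the response differs between the strains was tested as an interaction. It passed for 0 of the 37 genes and for 0% of all genes (limma), with 0 of the 37 genes against 1.4% of all genes at an unadjusted p under 0.05. Intervals were wide for several genes, such as -1.15 to 1.58 log2 for Rag1 and -0.92 to 1.02 for Cd9, and narrower for Cd24a, at -0.26 to 0.32. For the called genes the interval was -0.25 to 0.76 for Plscr1, -0.21 to 0.41 for Myb and -0.16 to 0.54 for Cd1d1.

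The second comparison asked which subset markers differ between NOD and NR4 cells. Averaged over both cultures, 0 of 37 passed, against 0.121% of all genes (limma). At an unadjusted p under 0.05 there were 6 of 37, against 4.39% of all genes. Of these Fzd6, Satb1 and Cd55 had higher values in NOD, and Cd180, Tlr7 and Mzb1 lower ones. The median of the 37 was 0.022 log2 (NOD minus NR4), against 0.0013 for all genes.

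**Figure D5:**
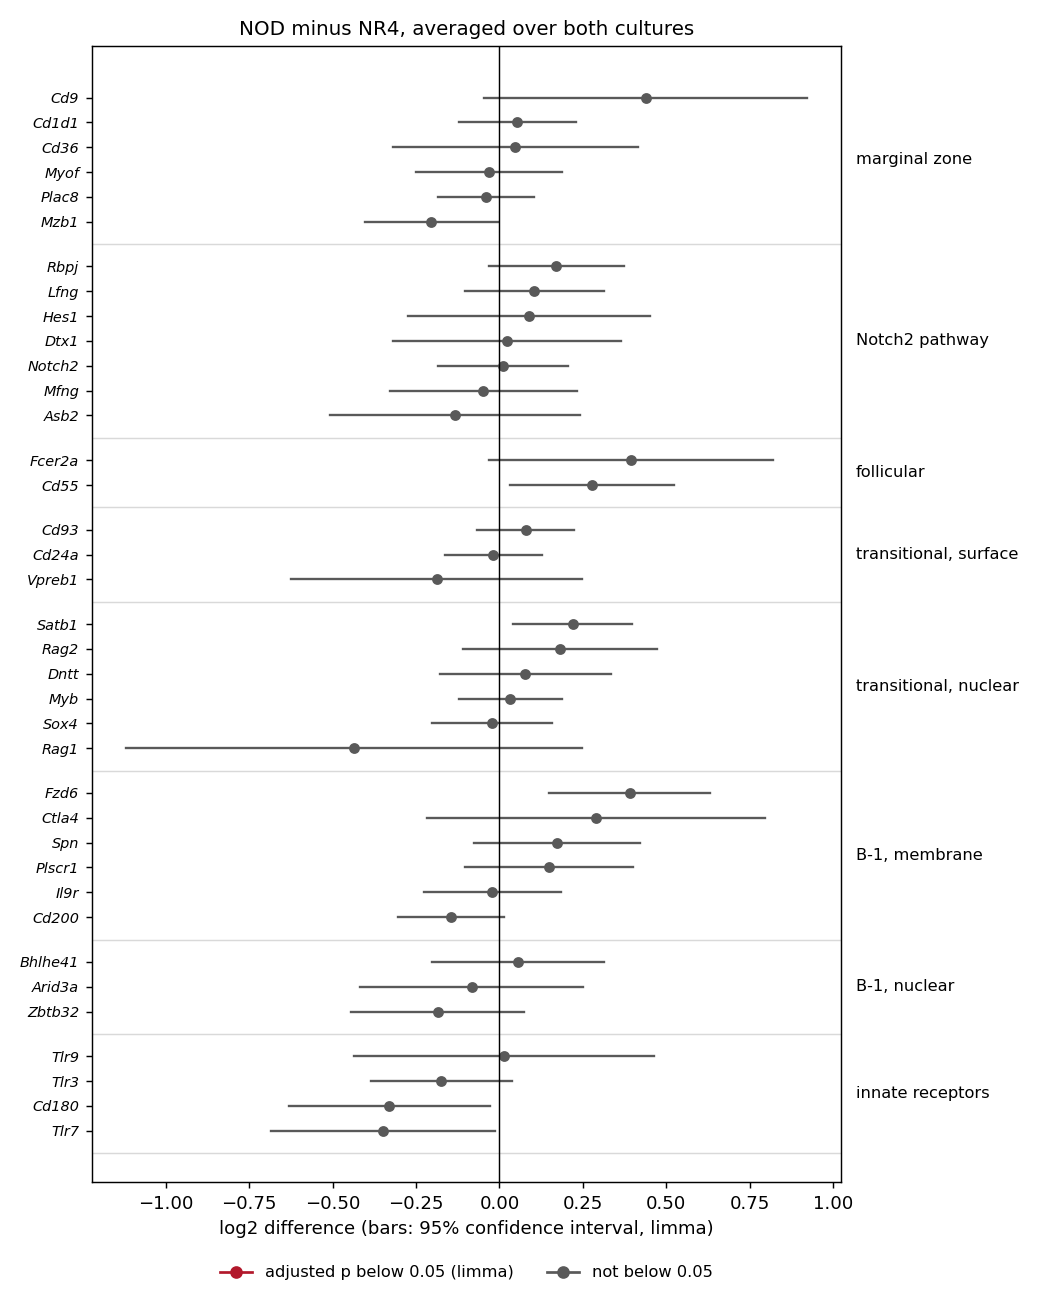
Difference between NOD and NR4 for each of the 37 genes, averaged over both cultures, as a log2 difference with its 95% confidence interval (limma). No gene is marked as called, and the points lie between -0.44 (Rag1) and 0.44 (Cd9).

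Fzd6 had the smallest p, at 0.39 (SE 0.11, limma adjusted p = 0.62). Its values given above show the stimulated NOD arrays, at 0.81 and 0.63, above the stimulated NR4 arrays at 0.11 to 0.23, while the unstimulated arrays overlapped. Satb1 read 0, 0.077 and -0.010 in NOD medium and -0.19, -0.14 and 0.023 in NR4 medium, and with anti-IgM 0.11 and 0.28 and -0.22, -0.21 and 0.064. The strains separated with anti-IgM and overlapped in medium, and the averaged difference was 0.22 (SE 0.080, limma adjusted p = 0.96). For Cd55 it was 0.28 (SE 0.11) and for Fcer2a 0.39 (SE 0.19), the latter being 0.24 without NR4 medium replicate 2 and 0.26 without NOD anti-IgM replicate 1. The gene medians of both follicular genes were higher on the stimulated NOD arrays than on the stimulated NR4 arrays, without overlap, and overlapped in medium. On the second Fcer2a probe set the stimulated strains overlapped, at 0 and -0.17 in NOD and -0.077, -0.085 and -0.48 in NR4.

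Tlr7 had a difference of -0.35 (SE 0.15), with the unstimulated NOD arrays, at -0.67 to -0.20, below the unstimulated NR4 arrays, at -0.17 to 0.11. With anti-IgM the strains overlapped, and the averaged difference was -0.21 without NOD anti-IgM replicate 2. The Tlr7 probe sets lay at -0.37, -0.125 and -0.43, and on the second of them the strains overlapped in medium. Cd180 was at -0.33 (SE 0.14), and -0.23 without NR4 anti-IgM replicate 1. Tlr3 was at -0.17 and Tlr9 at 0.014.

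Mzb1 read -0.28, -0.081 and 0.066 in NOD medium and -0.29 and -0.0040 with anti-IgM, against 0.018, 0.13 and -0.0080 in NR4 medium and 0, 0.21 and 0.14 with anti-IgM. Strains separated with anti-IgM by a narrow gap, and the averaged difference was -0.20 (SE 0.089, limma adjusted p = 1.00), or -0.13 without NOD anti-IgM replicate 1. Plasma cells also express Mzb1. Of 8 plasma cell markers 0 passed (limma) and 7 were negative, 3 of them at an unadjusted p under 0.05, against 4.39% of all genes. The means of the 8 were -0.11 to -0.023 on unstimulated and -0.14 to -0.024 on stimulated NOD arrays. In NR4 they were 0.032 to 0.058 and 0.011 to 0.23. The part of plasma cells in the value of Mzb1 was not tested. Cd9, also found on plasma cells, had the opposite sign, at 0.44 (SE 0.22), or 0.28 without NOD anti-IgM replicate 1. NK cell markers ran the other way, with 0 of 8 called, 6 positive and a median of 0.36, and their mean was 0.085 to 0.21 on stimulated NOD arrays and -0.35 to 0.083 on stimulated NR4 arrays. In medium the NK means overlapped, at -0.011 to 0.21 in NOD and -0.80 to 0.13 in NR4. T cell markers went both ways. Of 10, 0 passed (limma) and 6 had an unadjusted p under 0.05, with Cd3g at 1.02, Cd3d at 0.55 and Trat1 at 0.28, and Cd4 at -0.72 (limma adjusted p = 0.072), Cd8b1 at -0.64 and Cd8a at -0.42. Their mean overlapped between the strains, at -0.13 to 0.20 and -0.042 to 0.18 in NOD and -0.29 to 0.097 and -0.041 to 0.050 in NR4, in medium and with anti-IgM. Among the monocyte, neutrophil, dendritic cell, platelet, erythroid and pan B cell lists 0 genes were called for strain. The part of NK and T cells in the strain values was not tested.

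Of the remaining genes Cd200 was at -0.14 (SE 0.072), with all unstimulated NOD arrays below the unstimulated NR4 arrays. Rbpj was at 0.17 and Lfng at 0.10. The gene medians of both were higher without overlap in unstimulated NOD cells, as were those of Mfng and Spn. The probe sets of Lfng differed by sign, at 0.30 and -0.088, as did those of Spn, at -0.056 and 0.40. In medium the strains overlapped on each Spn probe set, on the second of Lfng and on the Rbpj probe set at 0.064. Cd93 was at 0.078 (SE 0.066), its probe sets lying at 0.75, -0.033, -0.0026, -0.21 and 0.61. The first and last (SE 0.19 and 0.17) had limma unadjusted p values of 0.0026 and 0.0049. They did not pass over all probe sets (limma adjusted p = 0.60 and 0.75), and the gene median does not reflect them. Zbtb32 was at -0.18, Vpreb1 at -0.19, Rag1 at -0.44 (SE 0.31) and Arid3a at -0.083. Without NR4 anti-IgM replicate 1 these were -0.10, -0.36, -0.18 and 0.041. Vpreb1 was at -0.035 without NR4 anti-IgM replicate 3, Rag1 at -0.26 without NOD anti-IgM replicate 2 and Rbpj at 0.10 without NR4 medium replicate 3. Lfng ranged from 0.052 to 0.17 as 1 array was left out, the lowest without NOD anti-IgM replicate 2 and the highest without NR4 anti-IgM replicate 2. Dtx1 was at 0.022, Plscr1 at 0.15, Myb at 0.032, Bhlhe41 at 0.056 and Cd36 at 0.048. The 15 genes outside the naming rule lay between -0.17 (Tlr3) and 0.29 (Ctla4), with Notch2 at 0.011 (95% interval -0.18 to 0.21). Of the 6 marginal zone genes 3 were positive and 3 negative, from -0.20 (Mzb1) to 0.44 (Cd9). Cd1d1 among them was at 0.054 (95% interval -0.12 to 0.23).

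Within cultures 0 of 37 passed in medium, where 0.0605% of all genes did (limma, 0 of 37 at an unadjusted p under 0.05, against 1.54% of all genes). With anti-IgM 0 passed, where 0.0495% of all genes did (limma, 5 of 37 at an unadjusted p under 0.05, against 4.34%). The strains separated in medium for 6 of 37 genes, against 6.38% of all genes. Rbpj, Lfng, Mfng and Spn were higher in NOD, 4 of 37 against 4.01%, and Cd200 and Tlr7 lower, 2 of 37 against 2.37%. With anti-IgM they separated for 9 of 37, against 14.1%. Fcer2a, Cd55, Satb1, Fzd6 and Plscr1 were higher in NOD, 5 of 37 against 7.97%, and Mzb1, Zbtb32, Tlr3 and Cd180 lower, 4 of 37 against 6.14%. These separations are those of gene medians. With anti-IgM the strains overlapped on both probe sets of Zbtb32 and on some of those of Fcer2a, Satb1, Fzd6, Plscr1 and Tlr3. In medium they overlapped on both of Spn and on some of those of Rbpj, Lfng and Tlr7. No gene of the 37 separated in both cultures, where 1.54% of all genes did. Of the further genes of the Notch, Toll-like receptor and early B cell lists 0 of 35, 0 of 24 and 0 of 20 passed in the strain difference averaged over both cultures (limma), with 2, 3 and 0 at an unadjusted p under 0.05.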

How the data were processed

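RNA was measured on Affymetrix mouse genome arrays. The authors deposited 1 table of log2 signals for 45101 probe sets. RMA is the method that the submitters' processing notes name (version not given in the sources used here), and in the deposited table the median of every probe set is 0. The log base is not written and was taken as 2. Centring removes levels, so no filter on dim genes was possible. Control probe sets (64), probe sets with several symbols (932) and with none (9160) were left out, and the median over a gene's remaining probe sets gave 18193 genes. The 2 shared probe sets left out here name Vpreb1 with Vpreb2 and Cd55 with Cd55b.

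Group means (4 groups) were fitted gene by gene with limma 3.58.1 (R 4.3.3), and 7 comparisons were tested, two-sided, with moderated variances and Benjamini-Hochberg adjustment within each comparison. Members and lists were chosen with earlier results of these data known, and the role groups were set for this description. A gene is described in full if called, if its unadjusted p is under 0.01 in an averaged comparison or the interaction, or if it has 1 of the 2 smallest p values in its role group. A gene is also named where its probe sets disagree. Replicate numbers pair arrays across NR4 cultures (correlation of deviations 0.33, 0.22 and 0.47, each over 0.1) and across strains in medium (0.59, 0.21 and 0.51). The limit is loose, since NR4 medium replicate 1 with NR4 anti-IgM replicate 2, of unlike number, gave 0.18. The pairing comes from the data, since the labels do not say what the number marks. The fit without a block stayed the main one. The number of arrays limits the precision. Alternatives covered the probe set chosen, normalization, the block, variance moderation, array weights and leaving out arrays. The scripts were tested on simulated data.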

Additional observations from a re-analysis of the deposited data

How the results depend on the processing

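The averaged response gave 5 called genes, and the same 5 after quantile normalization, with array medians set to 0 and with robust moderation. It gave 3 (Cd55, Fzd6, Plscr1) with the lowest-numbered probe set of each gene, 3 (the same genes) with a replicate block within strain, 4 without probe sets prone to cross-hybridisation (Cd1d1 lost) and 4 with array weights (Cd1d1 lost). With only replicates 1 and 2, chosen after seeing the data, it gave 0. Leaving out 1 array gave 0 to 4. With the replicate number as a block it gave 6, adding Bhlhe41 (-0.38, limma adjusted p = 0.027), beside 558 of all genes against 283. The NR4 response gave 0 and 2 with the replicate block, with 229 genes in all against 75. After quantile normalization the calls over all genes were 16 against 75 in NR4 and 9 against 21 in NOD, with 0 of the 37 in each. The NOD response gave 0, 1 with the replicate block (Plscr1, with 52 genes in all against 21), 2 with array weights (Fzd6 and Plscr1) and 0 to 1 when 1 array was left out, the 1 being Fzd6 without NR4 medium replicate 3. The pairing by number was not established for the comparisons with stimulated NOD cells, where 2 pairs gave correlations of 0.63 and 0.12 with NOD medium and 0.37 and -0.12 with stimulated NR4. Both values with NOD medium are over 0.1, but the deviations of the 2 stimulated NOD arrays are mirror images of each other. Counts for the strain differences and the interaction were 0 under every alternative run. Arid3a reversed between the strains, ranging from -0.20 to 0.041 when 1 array was left out. Of the values for single genes, 583 kept direction and side of the threshold, 38 kept direction and lost the call, 2 gained it and 1 reversed. Most of these values were not called in the main fit and had no call to lose. The losses all fell on the averaged response of the 5 called genes, each run under 20 settings. That response did not pass in 3 settings for Plscr1, 4 for Fzd6, 6 for Myb, 10 for Cd55 and 15 for Cd1d1. The causes were not tested. A filter on dim genes was not run because the values are centred.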
